A study of Mus musculus with 4 samples.

Results

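The 10 genes described here encode enzymes of the urea cycle and of amino acid breakdown in the liver, namely Cps1, Otc, Ass1, Arg1, Gls2, Hpd, Tdo2, Mat1a, Agxt and Sds. They were chosen by symbol, as the rows of the m6A peak lists that carry 1 of these names, and all 10 were found among 9650 genes with a peak. They carried 9 of 14693 peaks in the knockout list and 8 of 14057 peaks in the control list. The series mapped N6-methyladenosine (m6A), a methylated adenosine in RNA, in mouse liver by immunoprecipitation of methylated RNA fragments and sequencing (MeRIP-seq). Knockout livers were labelled Alkbh5-HKO, a knockout of the m6A demethylase Alkbh5 (HKO below, which is not expanded in the labels), and the control livers were labelled Alkbh5flox/flox, mice whose Alkbh5 gene is floxed (FF below). Mice of both genotypes were 9 weeks old and ate normal chow. RNA of 3 mice was pooled per genotype, and each pool gave 1 immunoprecipitated (IP) library and 1 input library. The sources used here do not give the Cre driver or the deleted part of Alkbh5.

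A peak is a stretch of exon where IP reads exceed what its input predicts, and its fold enrichment is IP over input as the authors' peak caller gave it. With 1 pool per genotype there is no replicate, so no difference between the lists was tested, and a gene without a peak was not shown to be unmethylated. Folds of the lists come from separate IP reactions and are set side by side only. Read totals are not in the lists, so the depth is unknown. Alkbh5 itself had 0 peaks in the HKO list and 3 in the FF list. Among listed cell type markers, 5 of 7 hepatocyte genes had a peak in each list and 0 of 4 leukocyte genes had one in either. Kupffer cell markers had a peak for 2 of 5 genes in each list, endothelial markers for 4 of 5 in each, stellate cell markers for 4 of 5 in the HKO list and 3 of 5 in the FF list, and cholangiocyte markers for 1 of 4 in each. The lists come from bulk liver RNA, in which fewer cells of a type and less RNA per cell cannot be told apart.

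Amino acid breakdown releases ammonia, and hepatocytes turn it into urea. In mitochondria carbamoyl phosphate synthetase (Cps1) joins ammonia and bicarbonate, and ornithine transcarbamylase (Otc) passes the product to ornithine. In the cytosol argininosuccinate synthase (Ass1) and the lyase Asl make arginine, which arginase (Arg1) splits into urea and ornithine. The other members feed this cycle or degrade single amino acids. In most transcripts m6A is densest near the stop codon and in the 3′ untranslated region. It lies within a short consensus whose core is a purine followed by AC. Antibodies to m6A also bind m6Am, a related mark beside the cap of transcripts that start with adenosine, so a peak at a gene start can hold either mark.

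Of the 10 genes, 4 had peaks in both lists, 4 had HKO peaks but no FF peak, and 2 had the reverse. The genes in both lists were Otc, Arg1, Gls2 and Agxt. The HKO list alone held Cps1, Ass1, Hpd and Tdo2, and the FF list alone held Mat1a and Sds. Over all 9650 genes with a peak, 75.6% were in both lists, 13.2% were found in HKO alone and 11.2% were found in FF alone. At the level of peaks, 4 of 9 HKO peaks of these genes shared at least 1 bp of exon with an FF peak, where 71.5% of all HKO peaks did, and 4 of 8 FF peaks shared exon with an HKO peak, where 74.8% of all FF peaks did. A fold of 5 or less was found for 7 of the 9 HKO peaks and all 8 FF peaks. Among all peaks of such a fold, 63.7% of HKO peaks and 70.8% of FF peaks overlapped the other list. With so few genes, chosen with results of these lists known, these counts describe the genes and were not tested.

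**Figure D1:**
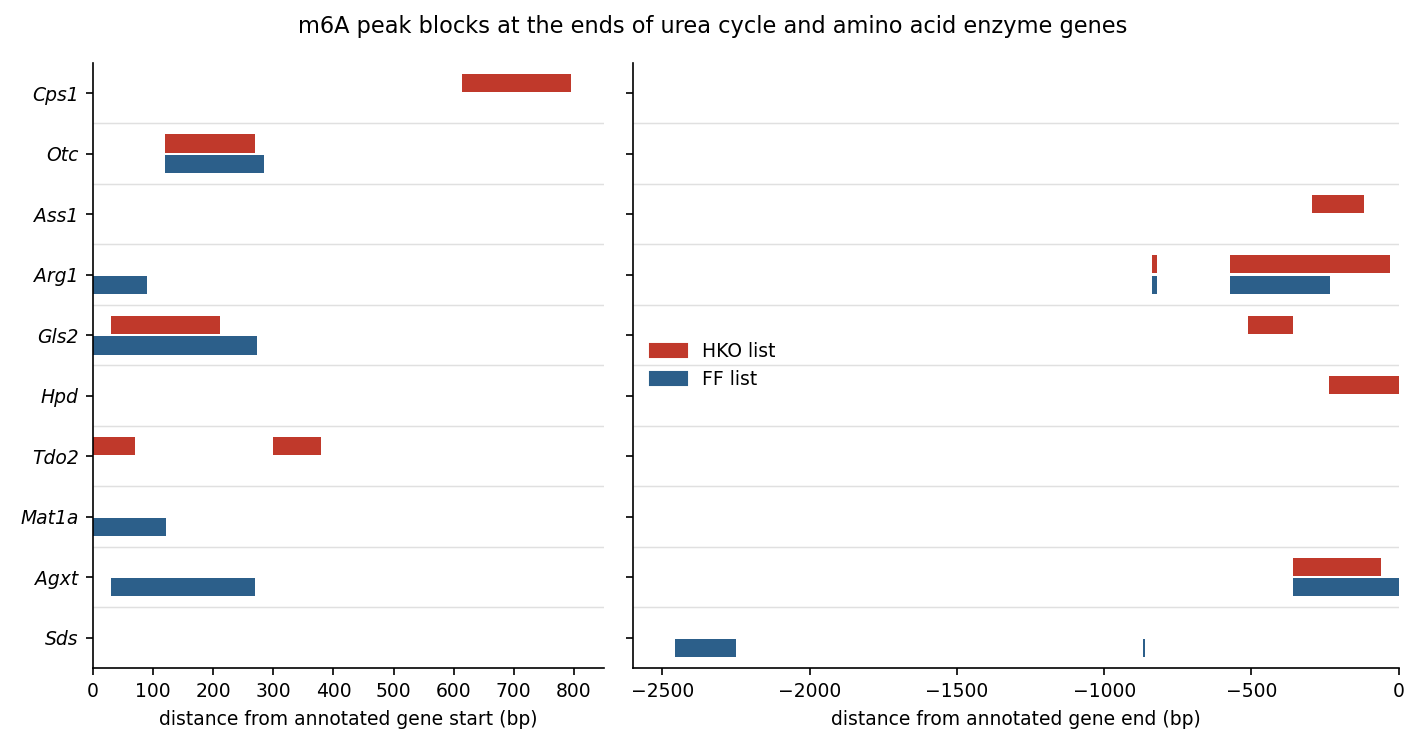
Exon blocks of the peaks of each gene, to scale, as distance in bp from the annotated gene start (left panel) and gene end (right panel), with HKO peaks (red) above FF peaks (blue). Most blocks lie close to a gene start or gene end. Cps1 is centred 704 bp from its annotated start, outside the window of 500 bp, and Sds 2351 bp from its end. The second FF blocks of Otc and Gls2 fall beyond the left panel.

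The start of the transcript is shown for the members with an entry in the table of RefSeq promoters (GRCm38.p6), which held 5 of the 10. These windows are shown because they are the places where peaks of Otc, Tdo2 and Agxt began or lay close, while Ass1 and Hpd had no peak there in either list. Each line gives the first 30 transcribed bases, 5′ to 3′, as DNA, and capitals mark GGAC or AGAC on the sense strand.
Otc: agggtgctaAGACctttgctccctctctgc
Tdo2: agcaaacctgtgtggtcctgAGACacttca
Agxt: agGGACtcatcaaccaggcctggcctctga
Ass1: gcttataaccctggatgcgcgcctctctca
Hpd: ggcttcttgtcccagtcttcctggtagagg
The windows lie at chrX:10252305-10252334 (plus strand) for Otc, chr3:81975699-81975728 (minus strand) for Tdo2, chr1:93135240-93135269 (plus strand) for Agxt, chr2:31470270-31470299 (plus strand) for Ass1 and chr5:123182694-123182723 (minus strand) for Hpd. Otc and Tdo2 held AGAC, at bases 10 and 21, and Agxt held GGAC at base 3. The windows of Ass1 and Hpd held neither motif on the sense strand, and the opposite strand held 2 matches in Hpd and 1 in Tdo2. AAC, another form of the consensus core, was not searched and occurs in the windows of Ass1, Tdo2 and Agxt. The motif counts therefore do not separate windows with and without the consensus. Of all 32851 promoter entries, 20.8% held GGAC or AGAC in the same 30 bases on the sense strand and 19.5% held one on the opposite strand. The windows of Otc, Tdo2 and Agxt begin with A, as 34.4% of all entries do, and those of Ass1 and Hpd begin with G. The Tdo2 window lay wholly inside its HKO peak, whereas the Agxt peak of the FF list began at base 31 and the Otc peaks of both lists at base 46. A match is a stretch of letters and does not place the modified base.

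Cps1, the entry enzyme of the urea cycle, spans 108842 bp on the plus strand of chromosome 1 and had 1 HKO peak but no FF peak. The peak lay at 67123040 to 67123220, with its centre 704 bp from the annotated gene start, outside the window of 500 bp used here to call a peak at the start. That centre is at 0.647% of the gene span, and a window of 1000 bp would count it as at the start. Cps1 had no RefSeq promoter entry, so its transcript start was not checked. Its fold was 2.79 and its log10 p was -4.81, the weakest p among the HKO peaks of these genes, with 27.0% of all HKO peaks weaker still. At a q of 1e-05 or less Cps1 had no peak in either list.

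Otc, which makes citrulline in the mitochondrion, had 1 peak near its start in each list. On the plus strand of chromosome X, the HKO peak (10252350 to 10252499) was enriched 3.03-fold with a log10 p of -33.8. The FF peak began at the same base and had a fold of 3.87 and a log10 p of -35.5. It covered 180 bp in blocks of 164 bp and 16 bp across an exon junction, and the HKO peak of 150 bp lay wholly within it. The Otc peaks thus differed by 30 bp of exon.

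Ass1, which joins citrulline and aspartate, had 1 HKO peak but no FF peak. This peak lay at 31520374 to 31520551 on the plus strand of chromosome 2, centred 207 bp from the gene end. Its fold of 1.93 was low, with 1.99% of HKO peaks below it, while its log10 p was -33.8, smaller than that of 77.1% of HKO peaks. With a fold of 2 or more required, Ass1 dropped out of the HKO list.

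Arg1, the enzyme that releases urea, carried the peaks of smallest p among the 10 genes in both lists. On the minus strand of chromosome 10, the HKO peak (24915237 to 24916045) was enriched 8.53-fold with a log10 p of -2760. The FF peak (24915443 to 24916045) was enriched 4.16-fold with a log10 p of -2630. These p-values were smaller than those of 99.8% of all peaks in each list. Both peaks shared the junction at their upstream end and a block of 18 bp beyond it, and the HKO peak, 561 bp of exon against 355 bp in the FF list, reached 206 bp further towards the gene end. Arg1 had a second FF peak at 24927381 to 24927470, the first 90 bp of the gene, with a fold of 1.51 and a log10 p of -6.21, and no HKO peak there. The predicted non-coding gene Gm40616, on the opposite strand in the promoter table, spans the same place. The sources used here do not say whether reads were assigned by strand, so that peak is uncertain.

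Gls2, the liver glutaminase that frees ammonia from glutamine, had peaks at the start of the gene in both lists and at its end in the HKO list. On the plus strand of chromosome 10, the HKO start peak (128194665 to 128194845) was enriched 1.55-fold with a log10 p of -5.64. The FF start peak (128194635 to 128199239) was enriched 4.63-fold with a log10 p of -47.3. The HKO peak of 181 bp lay inside the FF peak, which covered 331 bp of exon in blocks of 273 bp and 58 bp. The end peak of the HKO list (128209494 to 128209644) was enriched 5.05-fold with a log10 p of -76.6 and was centred 435 bp from the gene end. The nearest FF peak of Gls2 was centred 14769 bp away. Within the HKO list the end peak of Gls2 thus had the higher fold and the smaller p, and in the FF list the start peak was the sole one.

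Hpd, the dioxygenase of tyrosine breakdown, had an HKO peak over the last 239 bp of the gene and no FF peak. It lay at 123171807 to 123172045 on the minus strand of chromosome 5 and had a log10 p of -529, with a q too small for the files to hold. Its fold was 2.91, and 9.23% of HKO peaks had a lower one. Hpd had the smallest p of the 4 genes in the HKO list alone.

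Tdo2, the tryptophan dioxygenase that opens the kynurenine pathway, had 1 HKO peak but no FF peak. The peak at 81975350 to 81975728 on the minus strand of chromosome 3 began at the first base of the gene and covered blocks of 70 bp and 80 bp. It had a fold of 3.33 and a log10 p of -110. Of the 4 genes found in HKO alone, Tdo2 was the sole one with its peak in the start window of 500 bp. Its centre was 303 bp from the gene start along the genome. A window of 1000 bp would add Cps1, centred 704 bp from its annotated start. Of all HKO peaks without an overlapping FF peak, 4.71% had their centre within 500 bp of a start.

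Mat1a, the liver enzyme that makes S-adenosylmethionine, the methyl donor used by the m6A methyltransferase, had 1 FF peak but no HKO peak. It lay at 41105012 to 41105132 on the plus strand of chromosome 14, the first 121 bp of the gene, with a fold of 4.07 and a log10 p of -6.09. At a q of 1e-10 or less Mat1a had no peak.

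Agxt, the aminotransferase that removes glyoxylate with alanine as donor, had an end peak in both lists and a start peak in the FF list. On the plus strand of chromosome 1, the HKO end peak (93145063 to 93145361) was enriched 4.32-fold with a log10 p of -296. The FF end peak (93145063 to 93145421) was enriched 2.04-fold with a log10 p of -77.0. These peaks began at the same base, and the FF peak ran 60 bp further, to the annotated gene end. The FF start peak (93135270 to 93135509) was enriched 4.27-fold with a log10 p of -83.7 and was centred 150 bp from the gene start. The nearest HKO peak of Agxt was centred 9822 bp away. Agxt and Gls2 were thus opposite in layout, with the peak missing from the other list at the start of Agxt in FF and at the end of Gls2 in HKO.

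Sds, which deaminates serine to pyruvate and ammonia, had 1 FF peak but no HKO peak. The peak ran from 120481476 to 120483069 on the plus strand of chromosome 5 in blocks of 205 bp and 6 bp, centred 5034 bp downstream of the gene start and 2351 bp upstream of the gene end. Its fold was 1.75 and its log10 p was -23.7. It was the sole FF peak of these genes in neither end window, and it fell below a fold of 2.

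**Figure D2:**
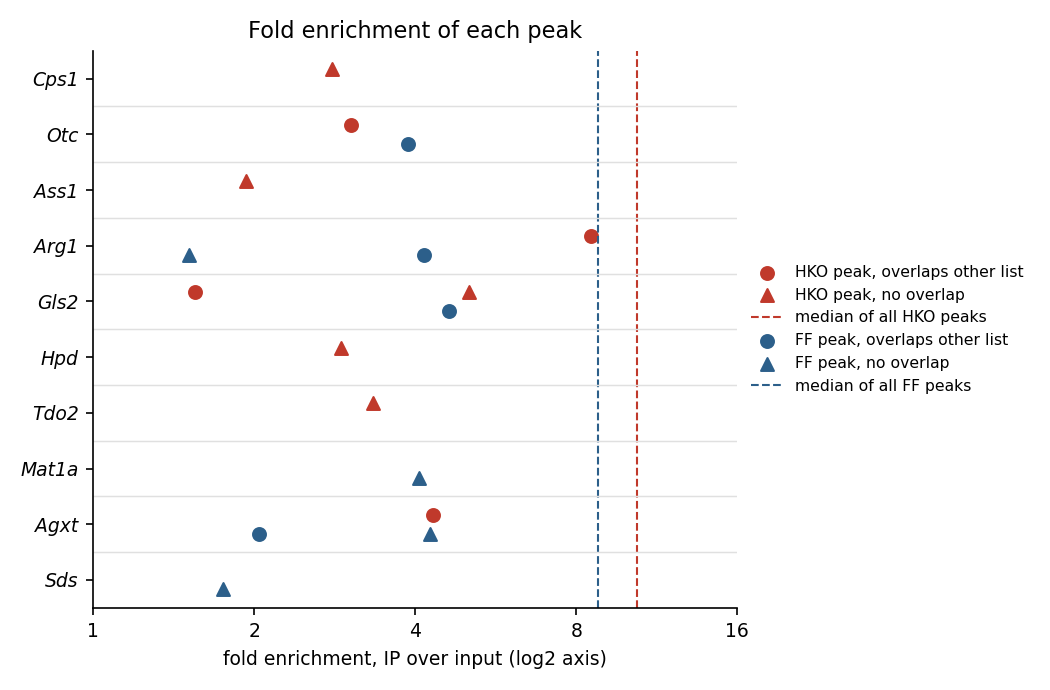
Fold enrichment (IP over input, log2 axis) of each peak by gene, with HKO peaks in red above FF peaks in blue; circles overlap a peak of the other list and triangles do not. Dashed lines mark the median of all peaks of each list, 10.4 in HKO and 8.80 in FF, and every peak of these genes lies to the left of its own list's line.

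Peaks of these enzymes combined a low fold with a small p. Folds ran between 1.55 and 8.53 in the HKO list, with a median of 3.03, where all HKO peaks had a median of 10.4. In the FF list they ran between 1.51 and 4.63, with a median of 3.97, where all FF peaks had a median of 8.80. All 9 HKO peaks and all 8 FF peaks lay below the median fold of their list. The log10 p was below the list's median, -9.71 in HKO and -8.82 in FF, for 7 of 9 HKO peaks and 6 of 8 FF peaks. Exceptions were Cps1 and the start peak of Gls2 in the HKO list, and Mat1a and the start peak of Arg1 in the FF list. Over whole lists, peaks with a log10 p of -100 or less had a median fold of 14.9 in HKO and 11.9 in FF, so a small p did not in general come with a low fold. A p-value gets smaller with more reads at a given fold, and the lists do not hold the read counts; the part of RNA abundance in these values was not tested. The peaks were shorter than their list in the median, with 181 bp of exon in HKO and 225 bp in FF, against 269 bp and 241 bp over all HKO and all FF peaks.

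**Figure D3:**
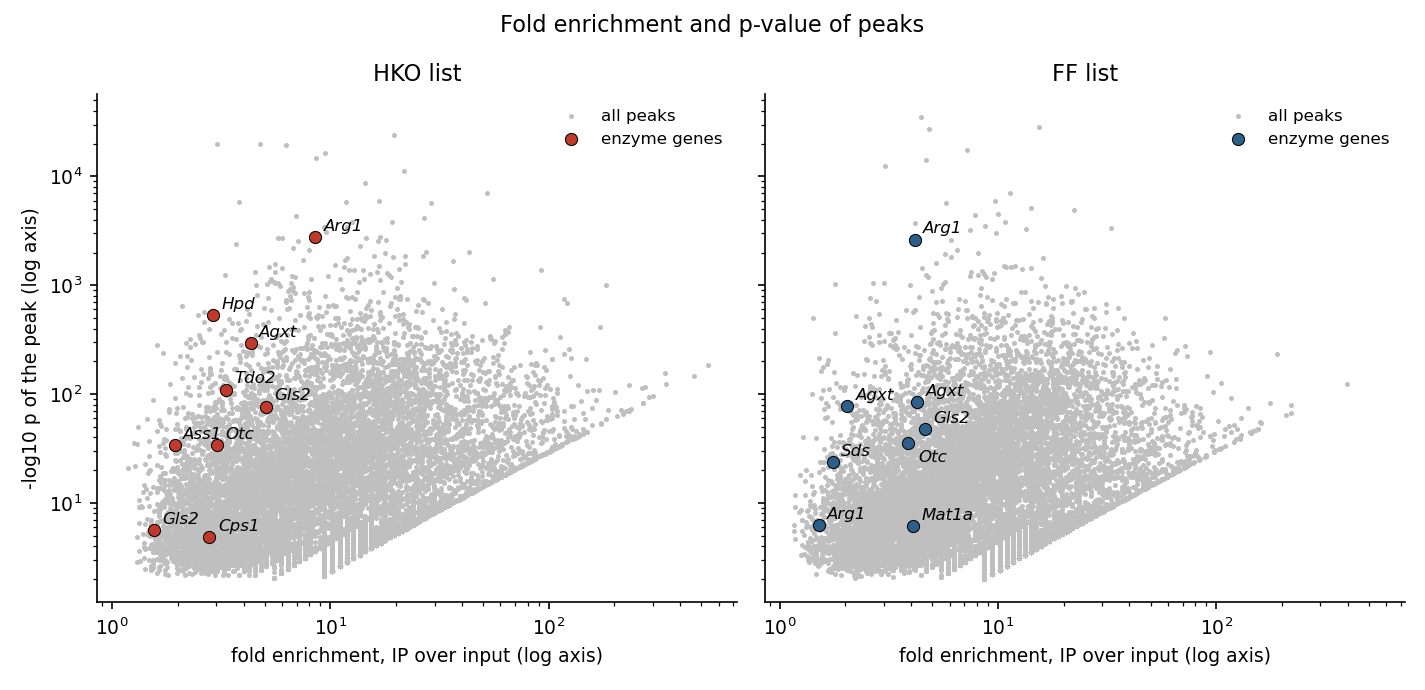
Fold enrichment (log axis) against -log10 p (log axis) for all peaks with a finite p (grey) and for the peaks of the enzyme genes (coloured), in the HKO list (left) and the FF list (right); 10 HKO and 4 FF peaks with a log10 p of minus infinity are left out. The enzyme peaks lie along the left side of each cloud, with Arg1 high in both panels.

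Apart from those of Cps1 and Sds, the peaks lay at the ends of the genes by the windows used here. A centre no more than 500 bp from the annotated start was counted as at the start, and one no more than 1000 bp from the end as at the end. In the HKO list 3 of 9 peaks were at the start and 5 at the end, and in the FF list 5 of 8 were at the start and 2 at the end. Over all peaks, 7.39% of HKO peaks and 15.0% of FF peaks were at the start, and 31.0% and 26.6% were at the end. Among peaks of these genes that did not overlap the other list, 1 of 5 HKO peaks (Tdo2) and 3 of 4 FF peaks (Arg1, Mat1a and Agxt) were at the start. At the end were 3 HKO peaks (Ass1, Gls2 and Hpd) and 0 FF peaks. The FF start peak of Arg1 (fold 1.51) and the HKO end peak of Ass1 (fold 1.93) fell below a fold of 2. That Arg1 peak is uncertain, as given above, and Mat1a had no peak at a q of 1e-10 or less. Over all peaks without overlap, the start held 4.71% in HKO and 34.7% in FF, and the end held 33.6% in HKO and 17.1% in FF. For these genes, as over whole lists, the start held more of the peaks without overlap in FF and the end more of them in HKO. Gene spans can include predicted transcripts, which moves their start. For Otc the RefSeq promoter entry placed the transcript start 75 bp inside the span. Cps1 had no such entry, and with a start window of 1000 bp its peak counted as at the start, making 4 HKO peaks.

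The rest of amino acid metabolism was examined through lists of 103 genes in 8 groups, of which 93 were not among the 10. Of these 93 genes, 81 had a peak, 68 of them in both lists, 3 of them only in HKO and 10 of them only in FF. As shares of those with a peak, these were 84.0%, 3.70% and 12.3%, beside 75.6%, 13.2% and 11.2% of all genes with a peak. Among the 10 enzymes more genes were found in HKO alone than in FF alone, and in the wider pathway fewer were. With a fold of at least 2 required, the wider counts became 59 for both lists, 8 for HKO alone and 12 for FF alone. Of all genes with such a peak, these states held 74.0%, 14.1% and 11.9%. With q limited to 1e-05 they became 62, 8 and 7, beside 74.6%, 15.8% and 9.65% of all genes with such a peak. HKO alone thus exceeded FF alone at that q, with 8 against 7, but not at the fold limit. Peaks of the 93 genes also had lower folds than their lists, with medians of 5.46 in HKO and 4.70 in FF, and overlapped the other list in 73.2% and 72.4% of cases. At the gene start lay 18.1% of their HKO peaks and 26.0% of their FF peaks, beside 7.39% and 15.0% of all peaks. At the gene end lay 40.2% and 26.8%, beside 31.0% and 26.6%.

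**Figure D4:**
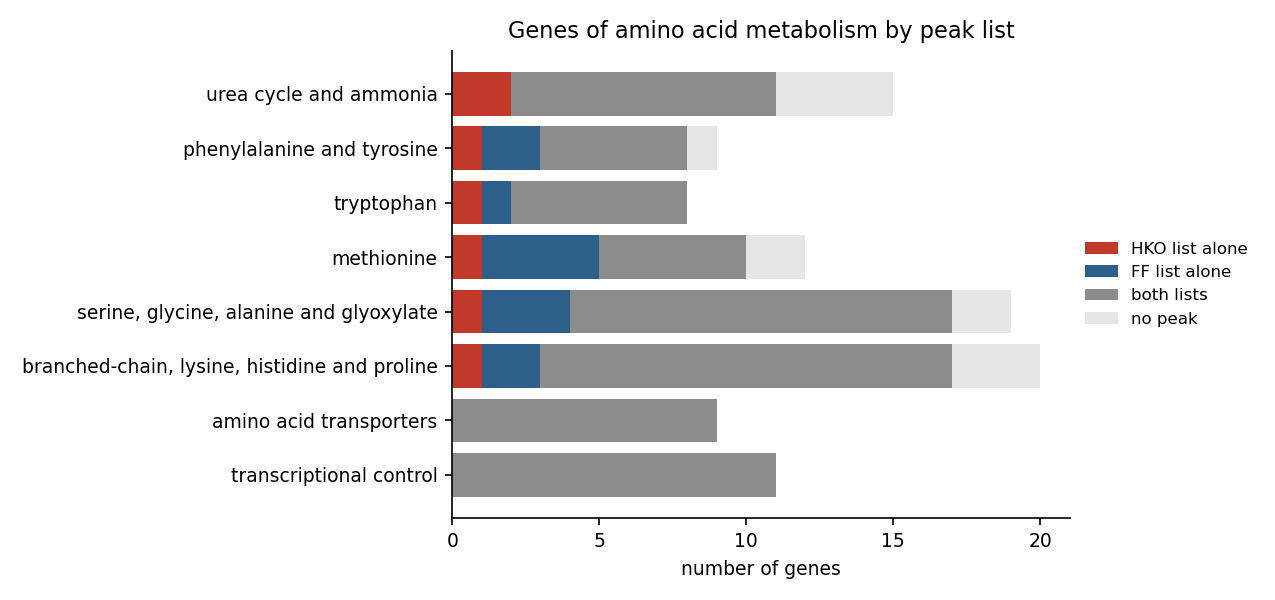
Number of genes in each list of amino acid metabolism (the 10 enzymes included) by where they had a peak: only HKO (red), only FF (blue), both lists (grey) or neither (pale). Transporters and transcriptional regulators had no gene in a single list, and methionine metabolism had 1 gene only in HKO and 4 only in FF.

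Besides the members, the urea cycle and ammonia group had peaks on 6 of 10 genes, each in both lists. They were Nags, which makes the activator of Cps1, the lyase Asl, the mitochondrial carriers Slc25a15 and Slc25a13, glutamine synthetase (Glul) and the mitochondrial carbonic anhydrase Car5a. Arg2, Slc25a2, Glud1 and Rhbg had no peak. With the members, 9 of 11 genes of this group with a peak were in both lists, and Cps1 and Ass1 were the exceptions.

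Of the 8 groups, methionine metabolism had the lowest share of genes in both lists. Of its 10 genes with a peak, 5 were in both lists, 1 was only in HKO and 4 were only in FF. Of all genes with a peak, 75.6% were in both lists, 13.2% only in HKO and 11.2% only in FF. The group is named because it was the lowest of the 8, and its counts were not tested. Mat2b, the regulatory subunit of the other S-adenosylmethionine synthetase, was in the HKO list (fold 2.75, log10 p -7.54). Besides Mat1a, the FF list held Mtr, methionine synthase (fold 12.5, log10 p -3.09), Pemt, which methylates phosphatidylethanolamine (fold 8.62, log10 p -4.39), and Bhmt2, a homocysteine methyltransferase (fold 2.21, log10 p -10.1). Bhmt2 has a close neighbour in sequence, Bhmt, that may share reads, so its peaks are uncertain. The peaks of Mtr (log10 q -2.33) and Pemt (log10 q -3.53) did not reach the stricter q of 1e-05. Those of Mat1a (log10 q -5.15), Bhmt2 (log10 q -9.07) and Mat2b (log10 q -6.59) did. Gnmt, Bhmt, Cbs and Cth were among those with peaks in both lists, and Mat2a and Ahcy had none.

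In tyrosine breakdown, Tat, Hgd, Gstz1 and Fah had peaks in both lists, so that Hpd was the sole enzyme between Tat and Fah with a peak in 1 list alone. Gch1 (fold 4.22, log10 p -87.5) and Qdpr (fold 1.36, log10 p -2.86), which make and recycle tetrahydrobiopterin, were in the FF list alone, and Pcbd1 had no peak. Downstream of Tdo2 in tryptophan breakdown, Afmid, Kynu, Haao, Acmsd and Qprt had peaks in both lists, as had Ido2, while Kmo (fold 4.16, log10 p -7.14) was in the FF list alone.

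Among serine, glycine, alanine and glyoxylate genes, 13 of 17 with a peak were in both lists, including Agxt2, Gpt, Got1, Shmt1, Gldc, Hao1, Grhpr and Hoga1. Shmt2, the mitochondrial serine hydroxymethyltransferase (fold 3.41, log10 p -44.9), was in the HKO list alone. Sdsl, a relative of Sds (fold 6.27, log10 p -5.63), and Gamt, which makes creatine (fold 1.89, log10 p -17.7), were in the FF list alone. In the group of branched-chain, lysine, histidine and proline genes, 14 of 17 were in both lists. Pcca, a subunit of propionyl-CoA carboxylase (fold 7.64, log10 p -8.63), was in the HKO list alone. Bckdhb, a subunit of the branched-chain ketoacid dehydrogenase (fold 7.91, log10 p -25.5), and Hal, histidase (fold 2.83, log10 p -13.2), were in the FF list alone. All 9 amino acid transporters, among them Slc38a2, Slc38a4 and Slc7a2, and all 11 regulators, among them Hnf4a, Cebpa, Gcgr and Klf15, had peaks in both lists.

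The genes outside the 10 that were in a single list were placed by their peak of smallest p. Of the 3 found only in HKO, 3 had it at the gene end (Mat2b, Shmt2 and Pcca), where 33.6% of all HKO peaks without overlap and 40.2% of all HKO peaks of the 93 genes lay. Of the 10 found only in FF, 6 had it at the gene start (Gch1, Qdpr, Kmo, Gamt, Bckdhb and Hal) and 0 had it at the end. Of all FF peaks without overlap, 34.7% were at the start and 17.1% at the end, and of all FF peaks of the 93 genes, 26.0% and 26.8%. The counts are of genes in a single list, whereas these shares are of peaks, including those of genes in both lists.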

How the data were processed

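Per the series design text, the authors ran exomePeak 2.16.0 once per genotype, with the input as control and a q limit of 0.05. HOMER 4.9.1, BWA 0.7.12, fastp 0.19.11 and the build GRCm38.p6 are named, without roles, in the notes on processing by the submitters. Per the labels' protocols, fragments of about 100 nt were incubated with antibody for 2 h. The sources disagree on antibody and library kit. In the deposited lists the authors' p-value per peak stands in a column of its own. Among peaks with a log10 p above -100, its log10 differed by at most 0.02 from the listed log10 p. Peaks of smaller p were outside that comparison. The log10 p and log10 q columns deposited by the authors are scores on a scale without a lower bound. Values too small for the files to hold read minus infinity. This was so for the log10 q of 305 HKO and 240 FF peaks, and for the log10 p of 10 and 4. The fold enrichment deposited by the authors is a ratio of IP over input. These values are the authors' own and describe peaks within a list.

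Peaks were compared with Python 3.11.15, pandas 2.3.3 and numpy 2.4.6, and drawn with matplotlib 3.10.9. An overlap needed 1 bp of exon on the same strand. Overlap code was tested on simulated data. Positions are the centre of exonic sequence against RefSeq gene spans (GRCm38.p6), counted from base 1; 6 HKO and 9 FF peaks had no such span. Sequences are from RefSeq promoters of the same build. The members, lists, windows and settings were chosen with earlier results of these data known. All members are described. In the wider lists, folds are given for each gene in a single list, at its peak of smallest p. The older symbol Mut was matched to Mmut and counted once. No depth is known, no interval is given, and no test was run between genotypes. Some genes of the wider lists are counted and not reported here by name.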

Additional observations from a re-analysis of the deposited data

How the results depend on the processing

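Of 53 recomputed counts, 47 stayed within 1.5 times of the reported one, under stricter q or fold, lists of equal length, other overlaps and other windows. The enzymes in the FF list alone went to 1 at a q of 1e-10 or less (Mat1a without a peak) and to 1 at a fold of 2 or more (Sds without a peak), in place of 2. Genes of all amino acid lists in the HKO list alone numbered 11 at a q of 1e-05 or less and 11 at a fold of 2 or more, in place of 7. Without the 10 enzymes, a count added after seeing the data, they numbered 8 and 8 in place of 3. The cause was not tested. The 4 enzymes in both lists stayed at 4 in each setting of q, fold and list length, while those in the HKO list alone were 3 in the settings of q and fold. At a q of 1e-05 or less, and at a fold of 2 or more, overlapping enzyme peaks were 3 in each list, in place of 4. The HKO start peak of Gls2 (fold 1.55, log10 q -4.76) failed both limits. Gls2 then stayed in both lists through peaks that did not overlap. No paired analysis was possible because each genotype was a single pool with no numbered replicates. What depth limits cannot be said, as read totals are not known.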
